A study of Mus musculus with 10 samples.

Results

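The genes described here carry pyruvate into mitochondria and turn it into acetyl-CoA, and they were read in CD8+ T cells kept with 4T1 tumor cells with or without sodium acetate (NaAc). The members were chosen by gene name and are 10 of the 57825 genes listed: Mpc1 and Mpc2 of the pyruvate carrier, Pdha1, Pdhb, Dlat and Dld of the pyruvate dehydrogenase complex, the kinases Pdk1, Pdk2 and Pdk3, and the phosphatase Pdp1. Each name occurred once in the table, and all 10 reached the average of 0.5 FPKM that was asked of a gene to be tested. In mitochondria, pyruvate made by glycolysis crosses the inner membrane through the carrier and is oxidized by pyruvate dehydrogenase, whose E1, E2 and E3 enzymes work in sequence. Pyruvate dehydrogenase kinases switch the complex off by phosphorylating E1, and the phosphatases switch it on again. In activated T cells much of the pyruvate leaves the cell as lactate instead, and acetate is another source of acetyl-CoA.

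According to the methods, the CD8+ T cells were isolated with a kit from spleens of female Balb/c mice (the study used mice aged 7 to 8 weeks) and activated for 12 h on plate-bound anti-CD3 with anti-CD28 and IL-2. They were then kept without or with NaAc (5 mM) for 24 h and with 4T1 cells, a mouse mammary carcinoma line, for 48 h. The control group (CD8+4T1) and the NaAc group (CD8+4T1+NaAc) had 5 samples each, labelled day 3. Both groups had 4T1 cells, and no group without them was analysed here. The labels do not say whether replicates came from separate mice or cultures, so the p-values measure the spread between these samples, which may be technical.

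FPKM count the fragments of a gene per kilobase of its listed length, scaled to the depth of the sample, and differences are given as log2 fold changes of FPKM + 0.1, NaAc minus control, from limma with adjustment over all 15710 genes tested. The scale refers to between 16306447 and 18853726 fragments per sample. Listed genes held 95.5% to 97.9% of these fragments in the control samples and 89.8% to 92.1% in the NaAc samples, and the FPKM of a sample summed to between 310965 and 335151 and to between 282995 and 295928. For this reason each gene was also tested after rescaling every sample to 1 common FPKM total. This moved the median difference over all genes from -0.02 to 0.15. Correlations between genes and summed markers are given as deposited only. NaAc replicate 1 stood apart from the other samples, with 20233 genes above 0 FPKM against 22291 to 25088 elsewhere. The defining genes of CD8 T cells were present in every sample, but 6 of the 10 listed were lower with NaAc as deposited (median -0.28 on the log2 scale), Cd3d (-0.54) and Cd3g (-0.53) the most. Cd8a, which was not called, was at 78.6 ± 2.34 FPKM (SD, n = 5) in the control and 76.5 ± 4.37 FPKM (SD, n = 5) in the NaAc samples, and Cd4 was at 0.541 and 1.60 FPKM. The summed FPKM of 12 epithelial and 4T1 genes was 9.31 to 21.8 in the control and 81.9 to 214 in the NaAc samples. In bulk RNA, fewer cells of a type and less RNA per cell cannot be told apart.

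Of the 10 members, 4 were lower with NaAc (Mpc1, Pdhb, Dld and Pdk1) and 1 was higher (Pdk2) at an adjusted p under 0.05. Over all genes tested, 19.0% were lower and 17.6% higher by the same rule. The members' median log2 fold change was -0.17, with 8 of 10 below 0. The median over all genes was -0.02, with 8126 of 15710 below 0. In 3 members, Pdhb, Dld and Pdk1, every NaAc sample was below every control sample, as in 13.3% of all genes, and no member had every NaAc sample above every control sample, as 13.1% of genes did. With the totals made equal 2 members were wholly below (Pdhb and Pdk1) and 2 wholly above (Pdha1 and Pdk2), against 5.17% and 22.9% of all genes. After rescaling to the same total, 2 members were lower (Dld and Pdk1) and 2 higher (Pdk2 and Pdha1), against 8.83% and 31.2% of all genes, and the members' median was 0.01 beside 0.15 for all genes. On that scale 5 of 10 members and 5295 of 15710 genes were below 0. Scaled to the T cell markers, 1 member was higher and 1 lower, against 31.6% and 7.13% of all genes, and rescaled without NaAc replicate 1, 3 were higher and 2 lower, against 35.36% and 12.02%. Scaled by the median ratio of the genes between samples, 1 member was higher and 4 lower, against 2812 and 2929 of 15710 genes. The median over all genes was then -0.01. Mpc1, Pdhb and Dld kept their calls under this scaling (adjusted p = 0.0188, 0.000914 and 0.000612 by limma). Pdk1 was lower and Pdk2 higher under every scaling tried.

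**Figure D1:**
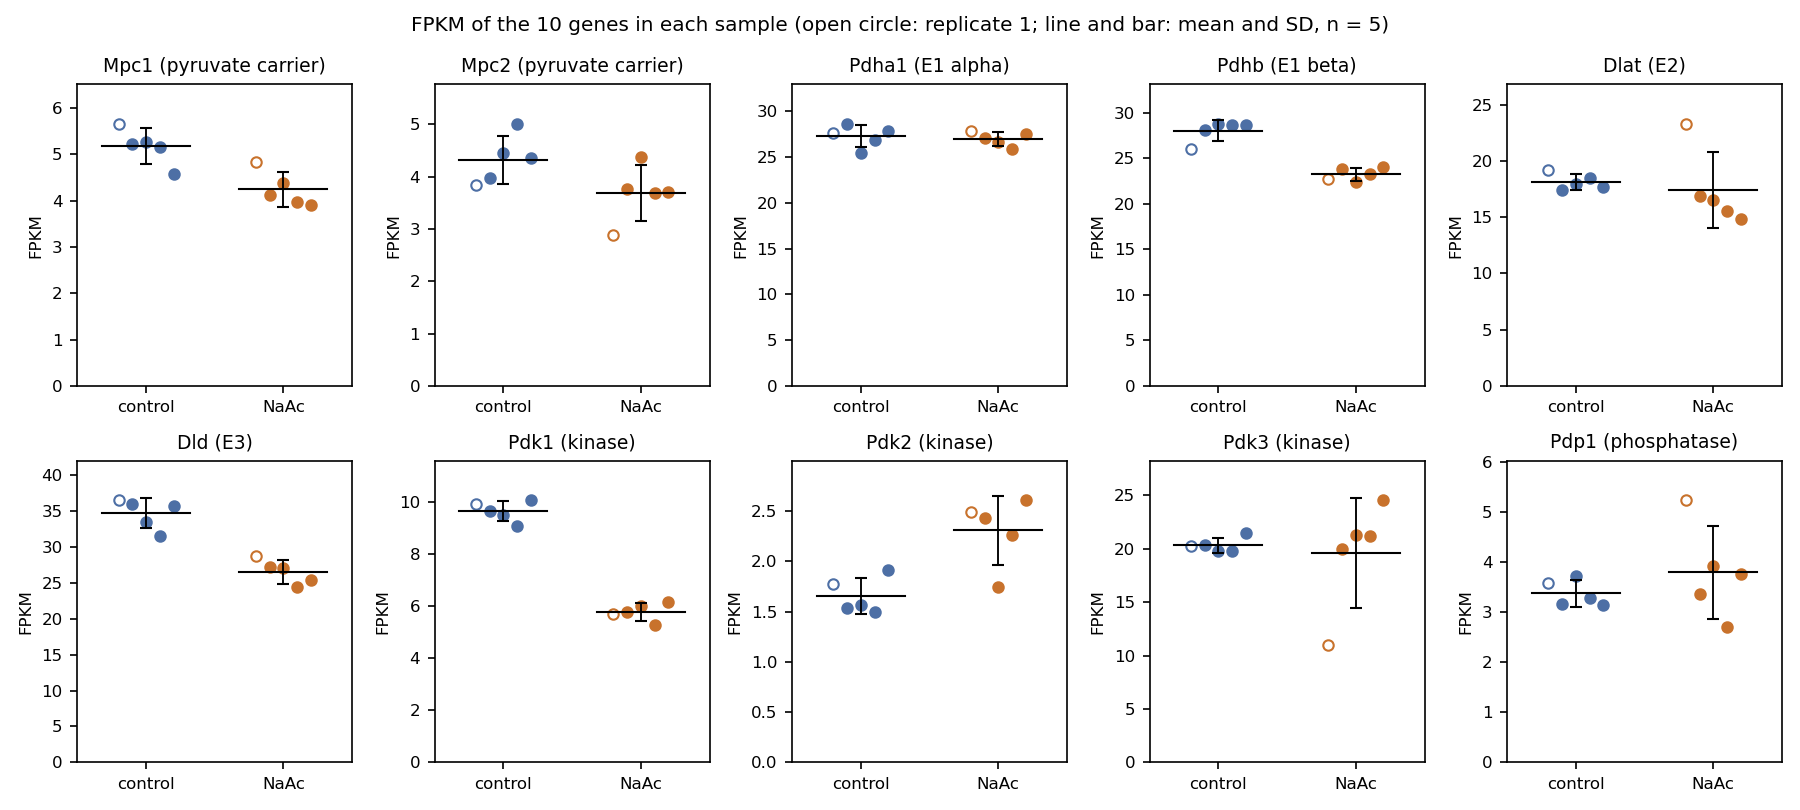
FPKM (vertical axes, from 0, a scale per gene) of the 10 genes in the 5 control and 5 NaAc samples, with 1 point per sample, an open circle for replicate 1 of each group, and a line and bar for the mean and SD. The NaAc points of Pdk1 (5.29 to 6.16) lie below all control points (9.10 to 10.1), and NaAc replicate 1 is the lowest point of Pdk3 and the highest of Dlat and Pdp1.

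Mpc1 and Mpc2 together form the mitochondrial pyruvate carrier. Mpc1 (ENSMUSG00000023861, listed at chr17:8501736-8516493, plus strand) measured 5.66, 5.23, 5.27, 5.16 and 4.57 FPKM in control replicates 1 to 5 and 4.83, 4.13, 4.39, 3.98 and 3.90 FPKM in the NaAc replicates. The groups overlapped through a single sample on each side, the lowest control and the highest NaAc sample. Their means were 5.18 ± 0.393 and 4.25 ± 0.377 FPKM (SD, n = 5), which is -0.28 on the log2 scale (standard error 0.08, adjusted p = 0.0172). This call did not hold after rescaling to the same total (-0.11, adjusted p = 0.374).

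The value of Mpc1 is uncertain, because a processed pseudogene, Mpc1-ps (ENSMUSG00000091498, listed at chr12:110824999-110825328, minus strand), copies its whole coding region of 330 bases. In the GENCODE sequences the copy and the Mpc1 transcript are 99.7% identical and differ by 1 substitution, G41A, counted from the A of the start codon with the base of Mpc1 first. The first 60 bases of both are shown because in the coding region the gene and its copy differ at this base alone, which is in capitals.
Mpc1: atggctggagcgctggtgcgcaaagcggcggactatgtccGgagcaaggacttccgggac
Mpc1-ps: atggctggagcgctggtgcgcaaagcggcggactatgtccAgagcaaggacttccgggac
More fragments were assigned to the copy than to the gene. Mpc1-ps held 557, 563, 559, 550 and 528 fragments in the control samples and 413, 491, 403, 414 and 439 in the NaAc samples. Mpc1 held 197, 190, 179, 177 and 157 fragments in the control and 172, 162, 151, 140 and 135 in the NaAc samples. All control counts of Mpc1-ps were above all NaAc counts. The copy took 75.4% ± 1.198 (SD, n = 5) of the fragments of the pair in the control and 73.9% ± 2.30 (SD, n = 5) in the NaAc samples, so that its share moved by less than the larger of these spreads. Mpc1-ps was lower with NaAc by a log2 fold change of -0.40 (standard error 0.04, adjusted p = 8.52e-05), and by -0.22 (adjusted p = 0.00248) after rescaling to the same total. Counted together with its pseudogenes, Mpc1 was at -0.37 on the log2 scale (standard error 0.04, adjusted p = 8.89e-05) as deposited. This sum was not rescaled to the same total. From which of the loci the fragments came was not tested.

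**Figure D2:**
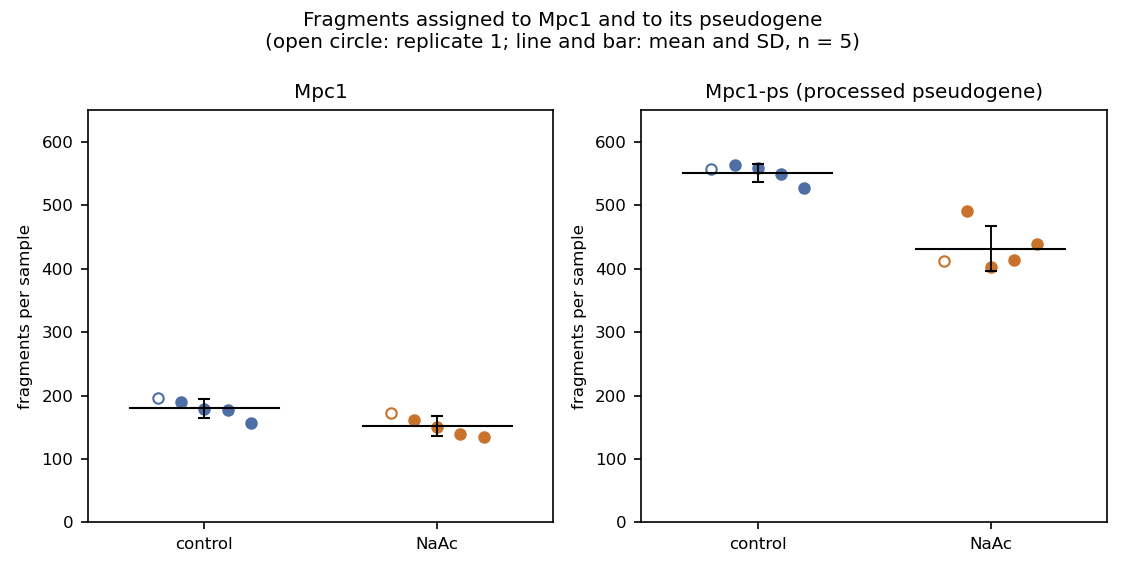
Fragments per sample (vertical axes, from 0, the same scale in both panels) assigned to Mpc1 and to its processed pseudogene Mpc1-ps in the 5 control and 5 NaAc samples, with 1 point per sample, an open circle for replicate 1, and a line and bar for the mean and SD. The pseudogene held 528 to 563 fragments in the control and 403 to 491 in the NaAc samples, more than Mpc1 (135 to 197) in every sample.

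Mpc2 (ENSMUSG00000026568, listed at chr1:165288206-165308783, plus strand), the other subunit of the carrier, measured 3.83, 3.97, 4.45, 5.01 and 4.35 FPKM in the control samples and 2.88, 3.76, 4.37, 3.69 and 3.71 FPKM in the NaAc samples. NaAc replicate 3 fell inside the control range, the other 4 NaAc samples were below every control sample, and NaAc replicate 1 was the lowest of all. The log2 fold change of -0.23 had a 95% confidence interval of -0.48 to 0.02 and did not pass the test (adjusted p = 0.130). Without NaAc replicate 1 it was -0.15 (adjusted p = 0.211), and with all samples rescaled to the same total it was -0.06 (adjusted p = 0.695). The ratio of Mpc1 to Mpc2 was 1.21 ± 0.188 (SD, n = 5) in the control and 1.18 ± 0.278 (SD, n = 5) in the NaAc samples. It leaves out the fragments assigned to Mpc1-ps, which were more than those of Mpc1 in every sample. NaAc replicate 1 had the highest ratio, 1.68, and the other 4 NaAc samples (1.005 to 1.10, mean 1.06) lay within or just below the control range of 1.03 to 1.48.

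E1, which decarboxylates pyruvate, is built of the alpha subunit Pdha1 and the beta subunit Pdhb. Pdha1 (ENSMUSG00000031299, listed at chrX:158905205-158921409, minus strand) measured 27.7, 28.6, 25.4, 26.9 and 27.9 FPKM in the control samples and 27.9, 27.1, 26.6, 25.9 and 27.5 FPKM in the NaAc samples. The NaAc values lay within the range of the control values, with a log2 fold change of -0.02 (95% confidence interval -0.12 to 0.08, adjusted p = 0.799). Because the FPKM totals were lower with NaAc, the same gene became higher after rescaling (0.16, adjusted p = 0.0328), which is close to the median shift of all genes under that scaling.

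Pdhb (ENSMUSG00000021748, listed at chr14:14296748-14303777, plus strand) measured 26.0, 28.1, 28.8, 28.7 and 28.6 FPKM in the control samples and 22.8, 23.8, 22.4, 23.2 and 24.02 FPKM in the NaAc samples. Every NaAc sample was below every control sample, and control replicate 1 was the nearest to them. The log2 fold change was -0.27 (standard error 0.04, adjusted p = 0.000766), a fall from 28.0 ± 1.16 to 23.2 ± 0.685 FPKM (SD, n = 5). After rescaling to the same total it was -0.09 (adjusted p = 0.0798).

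The ratio of Pdha1 to Pdhb does not depend on how samples are scaled. It was 1.06, 1.02, 0.883, 0.938 and 0.974 in control replicates 1 to 5 and 1.23, 1.14, 1.19, 1.11 and 1.14 in the NaAc replicates. Every NaAc sample had more Pdha1 per Pdhb than every control sample, with means of 0.975 ± 0.0697 and 1.16 ± 0.0448 (SD, n = 5). Between the 2 genes, which encode partners of 1 enzyme, the transcripts were thus nearly level in the control samples and Pdhb was the lower with NaAc.

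Dlat, the E2 enzyme that passes the acetyl group to coenzyme A from its lipoyl arm, is listed at chr9:50545933-50571080 on the minus strand (ENSMUSG00000000168). It measured 19.2, 17.4, 18.0, 18.5 and 17.7 FPKM in the control samples and 23.3, 16.9, 16.6, 15.6 and 14.8 FPKM in the NaAc samples. NaAc replicate 1 was the highest of all samples, while the other 4 NaAc samples were below every control sample. Over all samples the log2 fold change was -0.08 (95% confidence interval -0.31 to 0.16, adjusted p = 0.611), and without NaAc replicate 1 it was -0.19 (standard error 0.05, adjusted p = 0.0129). Without that sample and after rescaling to the same total it was -0.02 (adjusted p = 0.838).

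Dld, the E3 enzyme that reoxidizes the lipoyl arm and serves the sister complexes as well, had the highest mean FPKM of the members in the control group (ENSMUSG00000020664, listed at chr12:31381276-31401452, minus strand). It measured 36.5, 36.0, 33.5, 31.6 and 35.7 FPKM in the control samples and 28.7, 27.2, 27.1, 24.4 and 25.3 FPKM in the NaAc samples. No NaAc sample reached the lowest control sample. The log2 fold change was -0.38 (standard error 0.06, adjusted p = 0.000581), from 34.6 ± 2.08 to 26.6 ± 1.67 FPKM (SD, n = 5). Rescaled to the same total it was -0.21 (adjusted p = 0.0357), and scaled to 10 T cell marker genes, of which 6 were lower with NaAc by themselves, it was -0.18 and did not pass (adjusted p = 0.138).

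The largest differences among the members were those of Pdk1 and Pdk2, in opposite directions, while the third kinase, Pdk3, was not called. Pdk1, a kinase known as a target of the hypoxia factor Hif1a, is listed at chr2:71703568-71734202 on the plus strand (ENSMUSG00000006494). It measured 9.93, 9.65, 9.50, 9.10 and 10.1 FPKM in the control samples and 5.69, 5.76, 5.998, 5.29 and 6.16 FPKM in the NaAc samples. The gap between the groups was wider than the range within either of them, and NaAc replicate 1 lay among the other NaAc samples. Pdk1 fell 1.66-fold, with a log2 fold change of -0.73 (standard error 0.06, 95% confidence interval -0.85 to -0.61, adjusted p = 1.66e-05). It was called lower in all 14 fits of all 10 samples, with log2 fold changes from -0.74 to -0.53.

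Pdk2, a broadly expressed kinase of the complex, had the lowest FPKM of the members (ENSMUSG00000038967, listed at chr11:94917084-94932180, minus strand), and rested on 78 to 145 fragments per sample. It measured 1.78, 1.54, 1.57, 1.497 and 1.92 FPKM in the control samples and 2.50, 2.43, 1.74, 2.26 and 2.61 FPKM in the NaAc samples. NaAc replicate 3 fell inside the control range, and the other 4 NaAc samples were above it. The log2 fold change was 0.45 (standard error 0.13, adjusted p = 0.0175), a 1.36-fold rise, and it was 0.61 (adjusted p = 0.00374) after rescaling to the same total. Each sample left out in turn gave 0.40 to 0.54, with adjusted p-values up to 0.0428.

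Pdk3 had the highest FPKM of the kinases (ENSMUSG00000035232, listed at chrX:92808213-92875807, minus strand). It measured 20.3, 20.3, 19.8, 19.7 and 21.5 FPKM in the control samples and 10.96, 19.99, 21.3, 21.2 and 24.5 FPKM in the NaAc samples. NaAc replicate 1 was the lowest of all samples, and the other 4 NaAc samples overlapped the control samples. The log2 fold change was -0.10 (95% confidence interval -0.50 to 0.30, adjusted p = 0.694) with this sample and 0.09 (95% confidence interval -0.04 to 0.23, adjusted p = 0.222) without it. Without it and after rescaling to the same total it was 0.26 (adjusted p = 0.00783).

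Within the summed FPKM of the 3 kinases, the share of Pdk1 was 31.1%, 30.6%, 30.8%, 30.0% and 30.1% in the control samples and 29.7%, 20.4%, 20.6%, 18.4% and 18.5% in the NaAc samples. The control samples lay close together, and only NaAc replicate 1 came near them. The share of Pdk2 was 5.24% ± 0.382 (SD, n = 5) in the control and 8.67% ± 2.62 (SD, n = 5) in the NaAc samples, and every NaAc sample was above every control sample. Pdk3 made up 64.2% ± 0.619 in the control and 69.8% ± 7.10 in the NaAc samples (SD, n = 5), with 57.2% in NaAc replicate 1 and 70.9% to 73.7% in the others. The ratio of Pdk1 to Pdk2, which does not involve Pdk3, was 5.26 to 6.27 in the control and 2.28 to 3.44 in the NaAc samples. The summed FPKM of these 3 kinases, without Pdk4, was 31.6 ± 1.19 in the control and 27.7 ± 5.18 in the NaAc samples (SD, n = 5), a difference within the spread of the NaAc samples.

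**Figure D3:**
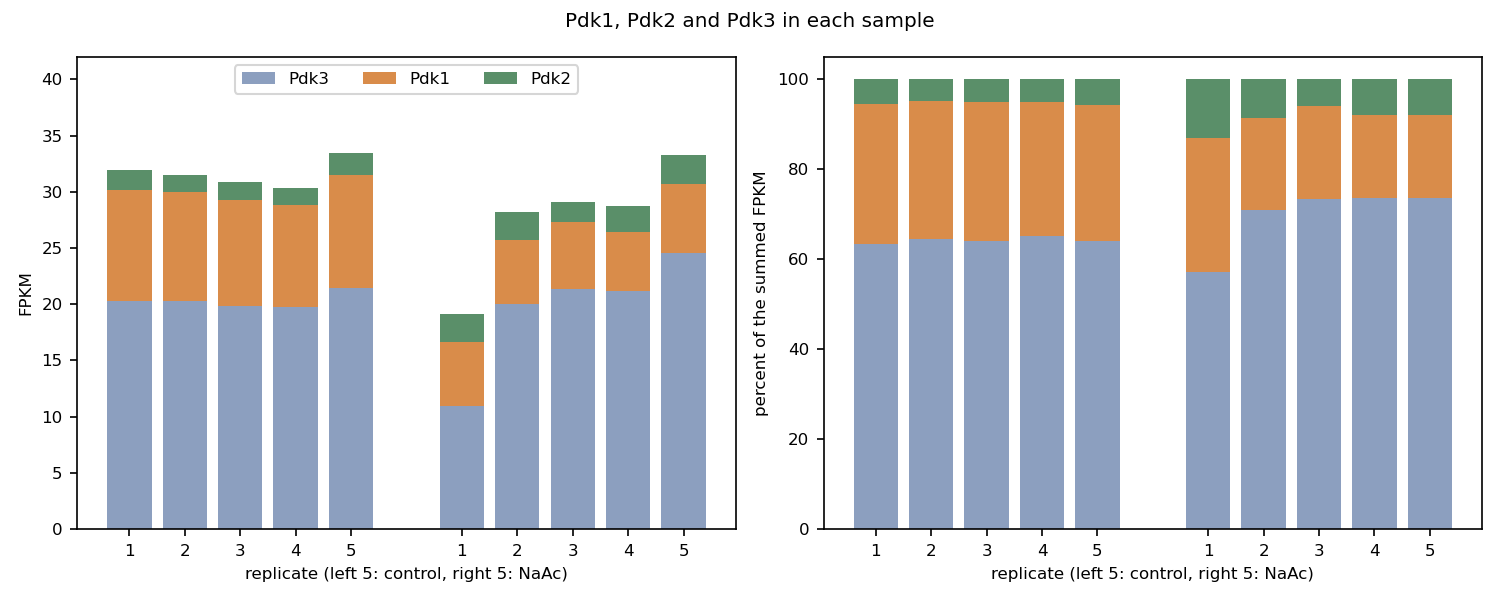
FPKM of Pdk1, Pdk2 and Pdk3 stacked per sample (left panel) and as a percent of their sum (right panel), with the 5 control samples left and the 5 NaAc samples right in each panel, 1 bar per sample. The Pdk1 part is 30.0% to 31.1% in the control samples and 18.4% to 20.6% in NaAc replicates 2 to 5, and NaAc replicate 1 differs from these through its lower Pdk3.

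Pdp1, the catalytic subunit of a phosphatase that reactivates E1, measured 3.59, 3.15, 3.73, 3.29 and 3.13 FPKM in the control samples and 5.23, 3.37, 3.93, 2.70 and 3.75 FPKM in the NaAc samples (ENSMUSG00000049225, listed at chr4:11958184-11966452, minus strand). The NaAc samples spread to both sides of the control samples, with replicate 1 the highest. The log2 fold change was 0.14 (95% confidence interval -0.19 to 0.46, adjusted p = 0.511), and it was 0.01 without NaAc replicate 1 and 0.25 without NaAc replicate 4, again not called (adjusted p = 0.930 and 0.165). Rescaled to the same total, with all samples, it was 0.31 and not called either (adjusted p = 0.135). The summed FPKM of Pdk1, Pdk2 and Pdk3 per Pdp1 was 9.42 ± 0.935 in the control and 7.79 ± 2.59 in the NaAc samples (SD, n = 5). It was 3.66 in NaAc replicate 1 and 7.40 to 10.6 in the others. This ratio leaves out the kinase Pdk4 (1.36 FPKM in the control and 2.03 in the NaAc samples) and the phosphatase Pdp2 (2.29 and 1.94 FPKM).

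**Figure D4:**
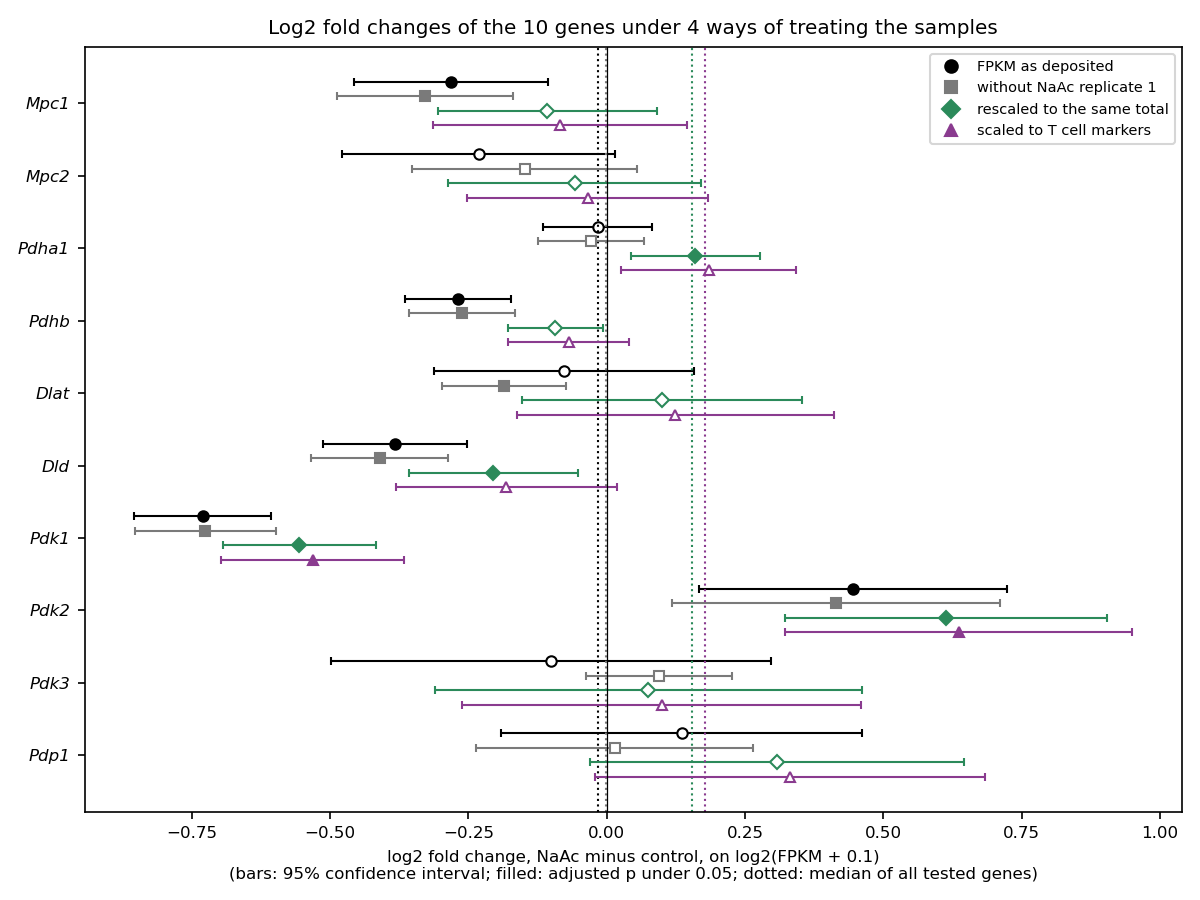
Log2 fold changes of the 10 genes, NaAc minus control, with 95% confidence intervals (horizontal axis), for the FPKM as deposited, without NaAc replicate 1, rescaled to the same total and scaled to 10 T cell marker genes; filled symbols have an adjusted p under 0.05, and dotted lines mark the median of all tested genes under each. Pdk1 (-0.73 to -0.53) is filled on the left and Pdk2 (0.41 to 0.64) on the right under each of the 4, while Mpc1, Pdhb and Dld lie nearer to 0 under the last 2.

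The order of the levels changed little. In the control samples it ran Dld, Pdhb, Pdha1, Pdk3, Dlat, Pdk1, Mpc1, Mpc2, Pdp1 and Pdk2, from 34.6 to 1.66 FPKM on average. Neighbours overlapped in range in 2 places, Pdhb with Pdha1 and Mpc1 with Mpc2. In the NaAc samples Pdha1 (27.0 ± 0.787 FPKM) stood level with Dld (26.6 ± 1.67 FPKM) at the top, the ranges of Pdhb, Pdk3 and Dlat overlapped in turn, and so did those of Mpc1, Pdp1 and Mpc2. Levels of different genes are compared per listed gene length, which joins all exons of a gene. The place of Mpc1 rests on the fragments assigned to it alone, without those of Mpc1-ps.

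The genes with patterns most like those of 2 members were sought among the protein-coding genes tested, by Pearson's r of log2(FPKM + 0.1) over the 10 samples, as a description. For Dld, the member with the highest mean FPKM, they were Nfya (r = 0.99), Prpf3 (r = 0.98) and Prps1l3 (r = 0.98). Their log2 fold changes were -0.59, -0.28 and -0.56, beside -0.38 for Dld. For Pdk1, the member with the lowest adjusted p, they were Cct8, Arl13b and Slc7a3 (each r = 0.99), with log2 fold changes of -0.42, -0.58 and -1.12. All points share the split into 2 groups. Among the deviations from the group means r was 0.98, 0.89 and 0.87 for Dld and 0.79, 0.75 and 0.71 for Pdk1.

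The promoters of the members were read from RefSeq (GRCm38.p6), 9 of 10 members with an entry, in windows from 250 bases before to 50 bases after a transcript start. Both strands were searched for 5 motifs. The letters ACGTG or else GCGTG are the core that hypoxia factors bind. The E-box CACGTG is a site of Myc and contains the first of these. Esrra binds AAGGTCA, and the site of Nrf1 has GCGCATG in its middle. The 250 bases before the start are shown for the 2 kinases that were called under every scaling, in opposite directions, read in the direction of the gene. They are chr2:71872974-71873223 (plus strand) for Pdk1, with a GCGTG in capitals, and chr11:95041372-95041621 (minus strand) for Pdk2, with a CACGTG in capitals.
Pdk1: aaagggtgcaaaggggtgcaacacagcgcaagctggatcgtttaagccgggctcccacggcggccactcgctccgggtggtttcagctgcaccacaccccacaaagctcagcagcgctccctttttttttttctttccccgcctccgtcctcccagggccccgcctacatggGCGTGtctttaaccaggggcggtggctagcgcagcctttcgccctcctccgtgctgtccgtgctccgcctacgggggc
Pdk2: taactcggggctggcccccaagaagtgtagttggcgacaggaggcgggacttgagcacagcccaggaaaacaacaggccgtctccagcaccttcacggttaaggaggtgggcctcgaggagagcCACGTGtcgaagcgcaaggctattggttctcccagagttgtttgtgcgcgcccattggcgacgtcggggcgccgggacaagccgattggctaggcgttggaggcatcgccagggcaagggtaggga
A second GCGTG of Pdk1 crosses the start. ACGTG or GCGTG was in the first window of 7 of the 9 members, including Pdha1 and Pdk3, which were not called, and in 43.8% of all 32851 windows of the same length. Single motifs were in 19.6% (ACGTG), 32.4% (GCGTG), 7.15% (CACGTG), 4.72% (AAGGTCA) and 3.91% (GCGCATG) of windows. CACGTG was in the first window of Pdk2 alone among the members. AAGGTCA and GCGCATG were in none of the members' windows. These matches describe letters in a window and not binding.

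The other genes of the pathway were taken from a list of 74 names, of which 72 were in the table and 63 were tested. Of these, 10 were higher and 17 lower with NaAc, against 17.6% and 19.0% of all genes, and their median log2 fold change of -0.02 was that of all genes. After rescaling to the same total 24 were higher and 7 lower, against 31.2% and 8.83% of all genes. The counts of the smaller groups below are to be read beside the same shares. Of the remaining pyruvate dehydrogenase genes none was called: Pdhx, which anchors E3, had a log2 fold change of 0.02, the kinase Pdk4 0.55 (95% confidence interval -0.19 to 1.29, at 1.36 and 2.03 FPKM), the phosphatase Pdp2 -0.24 and the phosphatase regulator Pdpr -0.11. Pdha2, the testis form of E1 alpha, had no fragment in any sample. By limma, 0 of these 4 genes had an unadjusted p under 0.05 as deposited. Rescaled to the same total, Pdhx was at 0.20 and Pdk4 at 0.72, again not called (adjusted p = 0.074 and 0.109).

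The cofactors of the complex, lipoate and thiamine, have supply genes of their own. Of the 8 lipoylation genes tested 2 were lower, Ndufab1 (-0.45, adjusted p = 0.00298), the acyl carrier protein on which lipoate is built, and Lias (-0.20, adjusted p = 0.0275), the lipoate synthase. Rescaled, 2 of the 8 were higher and 1 lower, as Ndufab1 kept its call (-0.27, adjusted p = 0.0216) and Lias did not (adjusted p = 0.771). Of the 3 thiamine genes tested 1 was lower, the transporter Slc19a2 (-0.37, adjusted p = 0.000237), from 38.3 ± 1.14 to 29.7 ± 1.74 FPKM (SD, n = 5).

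The sister complexes share Dld. Of their 10 genes tested, 4 were higher and 1 lower, and 7 were higher and 0 lower after rescaling to the same total, which moved the share of all genes called higher from 17.6% to 31.2% and that of genes called lower from 19.0% to 8.83%. Bckdk, the kinase of the branched-chain complex, rose from 6.24 ± 0.449 to 9.42 ± 0.614 FPKM (SD, n = 5, log2 fold change 0.59, adjusted p = 0.000101), and Bckdha, its E1 alpha, was higher by 0.33 (adjusted p = 0.0427). Gldc and Gcsh of the glycine cleavage system were higher by 0.48 and 0.61, and Dbt, the branched-chain E2, was lower by a log2 fold change of -0.18, a call lost after rescaling (adjusted p = 0.986). Ogdh and Dlst, the E1 and E2 of the 2-oxoglutarate complex, had log2 fold changes of 0.11 and -0.02 and were not called as deposited, while with the common total both were called higher, at 0.29 (adjusted p = 0.00169) and 0.16 (adjusted p = 0.0277).

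Among 14 tested genes that make, export or otherwise use pyruvate and acetyl-CoA, 4 were lower and 4 higher, and 3 and 6 after rescaling to the same total. Ldha, which makes lactate, fell from 805 ± 66.5 to 505 ± 36.1 FPKM (SD, n = 5, log2 fold change -0.67, adjusted p = 8.72e-05), and Slc16a3, a lactate exporter, changed by -0.57 (adjusted p = 3.07e-05). Pkm, which makes pyruvate, and Me2, a malic enzyme of mitochondria, changed by -0.38 and -0.29, and after rescaling Me2 alone of these 4 lost its call (adjusted p = 0.143). The 4 higher genes were Me1, the cytosolic malic enzyme (2.06, at 0.315 and 1.68 FPKM), the mitochondrial acetate enzyme Acss1 (0.54, at 1.60 and 2.35 FPKM), the citrate carrier Slc25a1 (0.28) and citrate synthase Cs (0.23). Acss2, also an acetate enzyme, averaged under 0.5 FPKM and was not tested. It was at 0.297 and 0.616 FPKM, with every NaAc sample above every control sample, as in 13.1% of the genes tested. The lactate and pyruvate transporter Slc16a1 and the citrate lyase Acly were called higher after rescaling alone, at 0.45 (adjusted p = 0.00539) and 0.29 (adjusted p = 0.00073). Pcx, which carboxylates pyruvate, was at 2.78 ± 0.211 and 2.80 ± 0.370 FPKM (SD, n = 5).

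Of 10 regulators tested, Epas1 was higher (0.76) and Foxo1 (-0.34) and Foxo3 (-0.40) were lower. With the totals made equal 5 were higher, Epas1 and Myc (0.34) among them, and 0 lower, with Foxo1 at -0.16 and Foxo3 at -0.22 (adjusted p = 0.0865 and 0.142). As deposited, Hif1a and Myc, at 66.3 and 72.4 FPKM in the control samples, had log2 fold changes of 0.06 and 0.16 and were not called. Of 14 genes that stand for mitochondrial content, such as Vdac3 (-0.48), Timm23 (-0.43) and Tfam (-0.27), 7 were lower and Opa1 (0.14) was higher. Over all genes tested, 19.0% were lower and 17.6% higher. The median log2 fold change of the 14 genes was -0.21, beside -0.17 for the members and -0.02 for all genes. After rescaling to the same total their median was -0.03, with 3 higher and 2 lower. For all genes the rescaled median was 0.15, with 31.2% higher and 8.83% lower.

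Markers of other cells moved with the treatment too, and their part in the members' differences was not tested. Of the 12 epithelial and 4T1 genes 8 were tested and 6 were higher with NaAc, with Krt8 at 3.42 and 34.2 FPKM, while Epcam and Cldn7 were not called. None of the 12 was at 0 in every sample. The summed FPKM of 10 CD8 T cell genes was 901 to 1008 in the control and 818 to 932 in the NaAc samples. Beside the 6 that were lower as deposited, 4 were lower and 3 higher, Cd8a among them, when rescaled (median -0.10). In the control and the NaAc samples, summed markers of B cells (3.92 to 4.91 and 4.55 to 6.24 FPKM, mostly Cd79b), NK cells (8.72 to 10.5 and 11.7 to 14.4 FPKM, mostly Eomes, which CD8 T cells express too) and macrophages and dendritic cells (24.2 to 31.3 and 24.3 to 27.3 FPKM, mostly Cd68) were present too. Defining genes of these cells, Ms4a1, Ncr1 and Csf1r, reached at most 0.0191, 0.196 and 0.142 FPKM. Lyz2 of the macrophage list was higher with NaAc, at 0.536 and 1.12 FPKM (adjusted p = 0.0328), and Itgax was at 1.05 and 1.11 FPKM. Eomes was higher as well (0.42, adjusted p = 0.000794), and the NK cell sum of every NaAc sample was above that of every control sample. The sums of CD4 T cell genes (0.812 to 1.54 and 1.98 to 2.80 FPKM), fibroblast genes (0.594 to 0.920 and 1.86 to 2.72 FPKM) and neutrophil genes (up to 0.874 and 1.87 to 4.36 FPKM, nearly all S100a8, with S100a9 at 0 in every sample) were higher in every NaAc sample, and those of red cell genes were at most 1.73 FPKM.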

How the data were processed

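Total RNA of purified CD8+ T cells was sequenced on a NovaSeq instrument at an outside facility. The submitters' processing notes name fastp, HISAT2 2.0.5, StringTie 1.3.3b and featureCounts 1.5.0-p3, and the methods name DESeq2 for the authors' own comparison, which was not used. Genome build and strand setting are not given in the sources used here. Positions are those of the deposited table, which differ from GRCm38 (1519 of 52125 shared genes have the same position), and without a known strand setting overlapping genes cannot be told apart. Mpc1, Mpc2, Pdha1 and Pdk2 overlap other genes, all under 1 FPKM. The deposited values are FPKM, 1 column per sample, not pooled, with gene length as an other column that the authors deposited beside them. FPKM times length gave whole fragments for 100% of values (within 0.1). No 2 samples were identical.

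FPKM are not counts, so the test was limma 3.58.1 (R 4.3.3), with variance trend and robust moderation, applied to log2(FPKM + 0.1) of the 15710 of 57825 genes whose average was 0.5 FPKM or more. A call needs a p below 0.05 after Benjamini-Hochberg adjustment. Low genes have their fold changes understated by the pseudocount. The step was tested on simulated data with few changed genes, as many up as down, and no outlying sample. That simulation does not show how the step behaves on these data. Ratios and shares were not tested. Samples were grouped by their titles. Named genes are all members, called genes of the listed groups and the 3 genes most like the member with the highest FPKM and the one with the lowest adjusted p. Some further list genes were named for their role or value after these were seen. Members and lists were chosen with earlier results of these data known. Alternatives were other scalings, pseudocounts, filters and moderation, sample weights, the replicate number as a block, protein-coding genes alone, voom on the recovered fragments and samples left out. Rescaling without NaAc replicate 1 and adding pseudogenes to the members were chosen after seeing the data. Sequences come from RefSeq (GRCm38.p6) and GENCODE. The members rest on 78 to 2314 fragments per sample, and the standard errors carry both this counting error and the spread between samples.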

Additional observations from a re-analysis of the deposited data

Results flagged for a closer look

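In each group of 5 samples, a sample was singled out where its gap to the nearest other sample exceeded the share of the group's range that Dixon's test allows (0.71). Chance gives this in about 1 of 20 groups, or 2 of the 40 checked here, and 10 were found, of which 7 concern NaAc replicate 1. The checks are not independent, since shares and ratios reuse the values of the same genes. The 10 are thus not separate events to be set against the 2. For Pdk3 this sample's 10.96 FPKM were the lowest (gap 0.746 of the range on the log2 scale), and for Dlat its 23.3 FPKM the highest (0.712). Its kinase shares stood apart in the same way, with Pdk1 at 29.7% (0.803) and Pdk3 at 57.2% (0.831). The log2 ratio of Mpc1 to Mpc2 was highest in it, at 0.75 (0.829). It also had the fewest genes above 0 FPKM, 20233 (0.916), and the lowest median squared correlation with its own group, 0.954 (0.932). The other 3 concern control replicate 1, which had the lowest Pdhb, 26.0 FPKM (0.765), the fewest genes above 0 FPKM of its group, 22291 (0.848), and the lowest median squared correlation with its group, 0.977 (0.758). What sets these samples apart was not tested.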

How the results depend on the processing

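The members with the fewest fragments were Pdk2 (78 to 145 per sample) and Mpc1 (135 to 197). After rescaling to the same total 2 members were higher and 2 lower (31.2% and 8.83% of all genes). With T cell markers as the scale 1 was higher and 1 lower (31.6% and 7.13% of all genes). Rescaling without NaAc replicate 1 gave 3 higher and 2 lower (35.36% and 12.02% of all genes). Under a filter at a mean of 5 FPKM 0 were higher, since Pdk2 was not tested, and 3733 of all genes were called in place of 5742, with 7800 genes tested. Other pathway genes were 24 higher and 7 lower after rescaling, 22 and 4 by T cell markers, 26 and 9 after rescaling without NaAc replicate 1, and 17 and 18 higher with sample weights and voom. Leaving out 1 sample gave 1 member higher and 4 to 5 lower. Of all genes, 2369 to 3408 were then higher and 2524 to 3557 lower (4947 to 6965 called). With the replicate block 1 member was higher and 4 lower, against 2551 and 2848 of all genes (5399 called). Of the other pathway genes 11 were then higher and 16 lower, Pdk4 (0.55, adjusted p = 0.0418) and Myc (0.16, adjusted p = 0.0312) being called higher, and Lias (adjusted p = 0.0878) and Opa1 (adjusted p = 0.0581) not called. With the group means taken out, control and NaAc samples sharing a number had r from -0.03 to 0.07, and 2 of 5 correlated best with their own number. With only 5 samples per group, these values cannot decide whether the numbers pair the samples. Reversed in direction were Pdha1 after rescaling (0.16), by T cell markers (0.18), by voom (0.076), after rescaling without NaAc replicate 1 (0.14) and without control replicate 2 (-0.042 to 0.00072 over the samples left out). So were Dlat after rescaling (0.10), by T cell markers (0.12) and by voom (0.016), and Mpc2 after rescaling without NaAc replicate 1 (0.017). Pdk3 was above 0 after rescaling (0.075), by T cell markers (0.099), with sample weights (0.058), without replicate 1 of both groups (0.093), without NaAc replicate 1 (0.094) and with that and rescaling (0.26), and Dbt by T cell markers (0.023). By voom Mpc1 had -0.19 (adjusted p = 0.206) and was the 1 member to lose its call, while Mpc1, Pdhb and Dld lost theirs by T cell markers (adjusted p = 0.568, 0.307 and 0.138). The causes of these changes were not tested.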
